A study of Mus musculus with 17 samples.

Results

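Collagens and the other structural genes of the extracellular matrix were followed in mouse uterus through the day after estradiol (E2). The list held 39 genes in 7 groups by role: fibrillar collagens, collagen VI with the fibril-associated collagens, basement membrane, elastic fibre, proteoglycans, adhesive and matricellular glycoproteins, and crosslinking and hydroxylation enzymes. Each gene was read from its brightest probe among those that the platform annotation gives to its symbol. A probe was found for 35 of the 39 genes, and 34 of these passed the filter on low values, out of 19057 symbols on the array and 14737 genes tested. Col6a3, Col12a1, Fbn1 and Loxl2 were not analysed here for want of an annotated probe. Fbln5, which codes for an elastic fibre assembly protein, read between 7.86 and 8.13 and lay above the array median of 8.20 on 0 of the 17 arrays, so it was not tested.

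Total RNA from uterine tissue was hybridised to 17 Illumina bead arrays. The labels give each array an Egr1 status, knockout (KO, 8 arrays) or wild type (WT, 9 arrays), and a time after E2 of 0, 3, 6 or 24 h. Egr1 codes for a zinc finger transcription factor that many cells make within minutes of a stimulus. The 8 groups therefore were WT and KO at each of the 4 times, with 2 arrays each except WT at 3 h, which had 3. The labels leave out how Egr1 was disrupted, the strain and age of the mice, the E2 dose, any ovariectomy and any vehicle given at 0 h. The labels do not tie the arrays of a group to different mice or pools, so a p-value here weighs a difference against the spread among these arrays alone, and that spread may be technical. All levels are log2 values, and the 17 arrays share 1 distribution by quantile normalization. A difference was called when limma's p-value, adjusted by Benjamini-Hochberg over all 14737 genes of a comparison, was under 0.05. Levels of different genes come from different probes and are not set against each other.

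Of 9 uterine marker genes, 6 (Esr1, Pgr, Hoxa11, Hand2, Wnt7a and Nr2f2) lay above the array median on all 17 arrays. The Egr1 probe was not called lower on the arrays labelled KO at any time: it read 13.27 to 14.74 on the arrays labelled KO and 11.39 to 14.94 on those labelled WT. It was higher in KO at 0 h by 1.18 on the log2 scale (SE 0.18, limma adjusted p = 0.00302) and at 24 h by 1.65 (SE 0.18, adjusted p = 0.000147), with -0.15 at 3 h (adjusted p = 0.695) and 0.73 at 6 h (adjusted p = 0.0924). Where this probe lies relative to the disrupted sequence is not known here, so it does not check the labels, and "KO" below means the arrays labelled KO. WT 0 h replicate 1 stood apart from the other 0 h arrays. Over all 45281 probes its correlation with the 24 h arrays averaged 0.974, where the remaining 0 h arrays gave 0.950 to 0.952. Of the 34 genes, 11 differed by more than 0.5 between the 2 WT 0 h arrays, against 0 to 5 genes in the other groups of 2. Over all tested genes that share was 3% in WT 0 h and 0.0407% to 2.67% in the other groups of 2. The changes from 0 h that limma fitted in WT are therefore also given without this array, while mean changes of second probes are given over all arrays. KO 0 h replicate 2 stood apart in immune markers: macrophage genes averaged 0.99 and granulocyte genes 1.25 above their own mean over all arrays, against at most 0.39 and 0.04 on any other array.

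The extracellular matrix of the uterus is laid down mainly by stromal fibroblasts and smooth muscle. Fibrillar collagens form its tensile fibres, whose diameter is set by small leucine-rich proteoglycans such as lumican, decorin and biglycan. Basement membranes of collagen IV, laminins and nidogens lie under the epithelium and around vessels and muscle cells, while elastin and fibulins give recoil. Collagen chains are hydroxylated on proline inside the cell and crosslinked by lysyl oxidases outside it. Estrogen makes the rodent uterus take up water within hours and grow over the following day, and the matrix loosens and is rebuilt in the course of this. In whole tissue, fewer cells of a type and less RNA per cell cannot be told apart.

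The promoter sequences of 6 genes whose courses the results turn on are shown, to set genes that moved together beside genes that moved otherwise. RefSeq promoters on GRCm38.p6 were found for 25 of the 39 genes, and each window is the 250 bases before the annotated start, on the + strand, read 5′ to 3′. Capitals mark the motifs searched on both strands: the CCAAT box (CCAAT), the GC box (GGGCGG), the TATA box (TATAAA), the element described for EGR proteins (GCGTGGGCG or GCGGGGGCG), the core of hypoxia response elements (ACGTG) and the core of estrogen response elements (AGGTCA). Col1a2 (chr6:4505368-4505617), Col3a1 (chr1:45311288-45311537) and Bgn (chrX:73483351-73483600) stand for genes lower at 6 h than at 24 h in both genotypes, and P4ha2 (chr11:54100674-54100923) and Fbln2 (chr6:91212514-91212763) for those highest at 3 or 6 h. Lamb1 (chr12:31265043-31265292) stands for genes called between KO and WT at 3 h, as Bgn and Fbln2 also were.
Col1a2: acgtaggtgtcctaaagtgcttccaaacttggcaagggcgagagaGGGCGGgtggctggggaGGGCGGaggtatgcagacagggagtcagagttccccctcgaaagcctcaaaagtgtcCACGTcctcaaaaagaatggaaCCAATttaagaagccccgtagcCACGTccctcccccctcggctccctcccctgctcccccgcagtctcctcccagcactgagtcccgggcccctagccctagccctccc
Col3a1: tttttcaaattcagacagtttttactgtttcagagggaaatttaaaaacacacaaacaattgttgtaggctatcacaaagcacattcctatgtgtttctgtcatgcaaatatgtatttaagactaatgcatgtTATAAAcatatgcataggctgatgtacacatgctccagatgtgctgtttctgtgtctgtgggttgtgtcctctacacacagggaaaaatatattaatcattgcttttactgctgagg
Bgn: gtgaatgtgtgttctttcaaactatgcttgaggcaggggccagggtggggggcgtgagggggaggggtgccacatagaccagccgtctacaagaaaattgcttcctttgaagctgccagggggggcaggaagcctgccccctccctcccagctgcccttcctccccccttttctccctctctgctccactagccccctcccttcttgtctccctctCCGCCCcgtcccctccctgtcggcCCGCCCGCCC
P4ha2: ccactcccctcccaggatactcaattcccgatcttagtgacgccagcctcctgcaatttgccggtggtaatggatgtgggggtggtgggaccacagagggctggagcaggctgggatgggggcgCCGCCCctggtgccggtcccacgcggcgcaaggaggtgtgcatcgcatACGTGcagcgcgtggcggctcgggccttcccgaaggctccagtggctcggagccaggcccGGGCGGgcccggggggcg
Fbln2: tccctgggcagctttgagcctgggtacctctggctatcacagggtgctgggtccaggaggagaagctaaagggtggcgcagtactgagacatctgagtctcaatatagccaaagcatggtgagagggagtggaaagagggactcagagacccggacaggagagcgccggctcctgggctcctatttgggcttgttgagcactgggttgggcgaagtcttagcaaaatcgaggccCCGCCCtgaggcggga
Lamb1: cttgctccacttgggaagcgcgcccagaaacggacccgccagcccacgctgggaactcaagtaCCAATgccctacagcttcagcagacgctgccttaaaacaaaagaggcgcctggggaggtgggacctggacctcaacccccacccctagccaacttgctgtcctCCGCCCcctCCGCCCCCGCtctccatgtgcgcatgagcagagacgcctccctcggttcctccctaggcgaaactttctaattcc
The Col1a2 window held a CCAAT box at bases 109 to 105 before the start, 2 GC boxes and 2 copies of the hypoxia core. In the Col3a1 window the match was a TATAAA at bases 117 to 112. Bgn held 3 GC boxes on the opposite strand, the last at bases 6 to 1, and Fbln2 held 1 at bases 16 to 11. P4ha2 held 2 GC boxes and an ACGTG at bases 78 to 74. Lamb1 held a CCAAT box, 2 GC boxes and an EGR element at bases 74 to 66, which overlaps 1 of the GC boxes. The windows of Bgn and Fbln2, which were also called between KO and WT at 3 h, held no EGR element. Over all 32841 promoter windows of this length the CCAAT box was present in 33.9%, the GC box in 32.7%, the hypoxia core in 16.6%, the estrogen core in 14.0%, the TATA box in 12.4% and the EGR element in 3.06%. Among the 25 matrix genes with a window these motifs were in 8, 14, 4, 1, 3 and 2 genes, in that order. Such matches are descriptions of letters, and binding was not measured.

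More matrix genes fell than rose between 0 h and 3 or 6 h after E2, and more rose than fell between 6 and 24 h, in both WT and KO. At 3 h after E2, 18 of the 34 genes were lower than at 0 h in WT and 4 higher, against 24.5% and 22.2% of all tested genes. In KO 14 were lower and 2 higher at 3 h, against 21.4% and 19.0%. At 6 h the counts were 17 lower and 3 higher in WT (22.1% and 21.9% of all genes), and 17 lower and 5 higher in KO (23.0% and 21.8%). The median difference of the 34 genes from 0 h was -0.29 at 3 h and -0.27 at 6 h in WT, and -0.23 and -0.30 in KO, where the medians over all genes were between -0.0075 and 0.0020. At 24 h 10 genes were higher than at 0 h and 8 lower in WT (18.9% and 19.0% of all genes), and 14 were higher and 10 lower in KO (22.5% and 23.1%). The median of the 34 genes at 24 h was close to the 0 h level, at 0.013 in WT and -0.0016 in KO. Without WT 0 h replicate 1 the WT counts were 18 lower and 6 higher at 3 h (22.9% and 20.6% of all genes), 16 and 5 at 6 h (21.4% and 20.7%), and 8 and 12 at 24 h (19.7% and 19.0%), with medians of -0.36, -0.23 and 0.065. Without WT 0 h replicate 2, WT at 24 h gave 7 calls in place of 18, against 25.2% of all genes called in either direction. Without KO 0 h replicate 2 the KO counts were 6 lower and 2 higher at 3 h (17.5% and 15.3% of all genes), 12 and 5 at 6 h (20.0% and 18.3%), and 8 and 13 at 24 h (19.8% and 19.0%). The 6 falls at 3 h in KO are then about the share of all genes. The times are each compared with the same 0 h arrays, so their values stand side by side and are not independent.

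**Figure D1:**
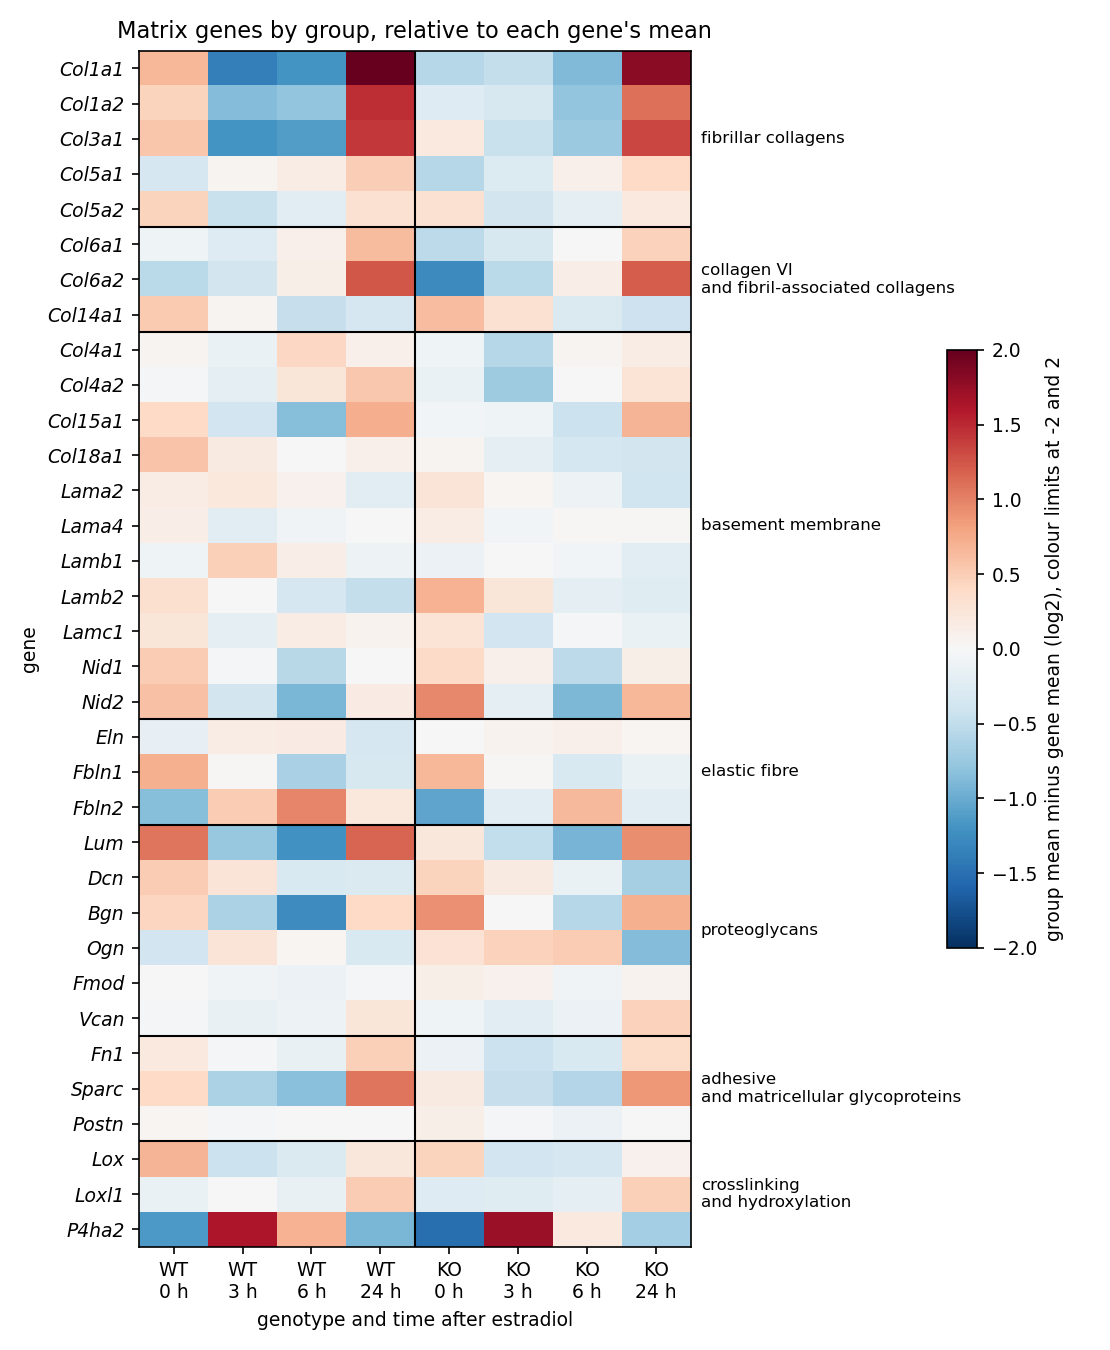
Colour map of the 34 matrix genes (rows, by role) in the 8 groups (columns, WT then KO by time after estradiol), where each cell is the group's mean log2 level minus the mean of that gene's 8 group means, with colours ending at -2 and 2. The fibrillar collagens Col1a1, Col1a2 and Col3a1 and the proteoglycans Lum and Bgn are lower at 6 h than at 24 h in both genotypes, while P4ha2 is highest at 3 h and Fbln2 at 6 h.

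The step from 6 h to 24 h involves no 0 h array. Between these times 15 of 34 genes rose and 4 fell in WT (19.3% and 19.0% of all tested genes), and 15 rose and 5 fell in KO (19.7% and 18.6%). The same 15 genes rose in both, which is 100% of each list: Col1a1, Col1a2, Col3a1, Col5a2, Col6a1, Col6a2, Col15a1, Nid1, Nid2, Lum, Bgn, Vcan, Fn1, Sparc and Loxl1. Lama2, Fbln2 and P4ha2 fell in both, which is 75% of the WT list and 60% of the KO list, and 0 genes were called in opposite directions. The same overlap over all tested genes was not computed, so it is not read here as a trait of the matrix genes. The median change of the 34 genes was 0.34 in WT and 0.29 in KO, where the medians over all genes were -0.0054 and -0.0066. Leaving out 1 array at a time changed 3 of the 15 rises most. Col6a1 and Col6a2 lost the call in WT without any of the 4 arrays (limma adjusted p between 0.0681 and 0.151, and between 0.0506 and 0.0828), as did Loxl1 (0.0899 to 0.134), and in KO each lost it without 3 of the 4 arrays. The fall of Lama2 lost the call without 2 of 4 arrays in WT (up to 0.179) and without any of the 4 in KO (0.0779 to 0.131), and that of P4ha2 in KO without KO 24 h replicate 1 (0.0778).

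**Figure D2:**
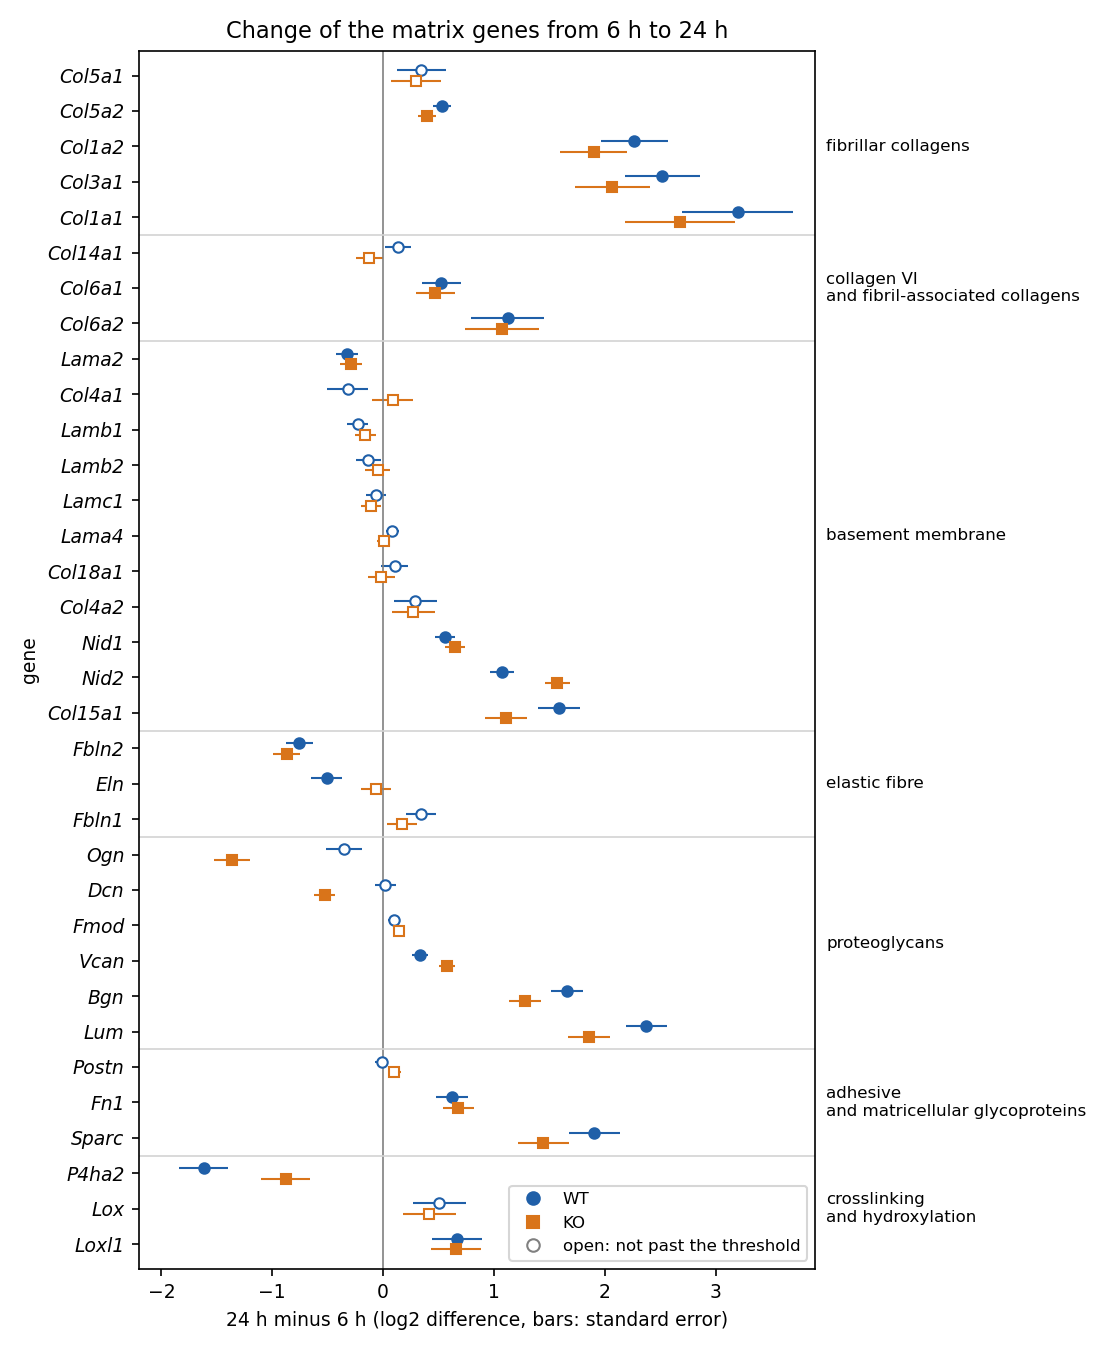
Log2 difference between 24 h and 6 h for each of the 34 matrix genes in WT and KO, where points are limma's estimates, bars are ± 1 SE, and filled points have an adjusted p under 0.05. Col1a1 lies farthest to the right at 3.20 in WT and 2.68 in KO, and P4ha2 (-1.62) in WT and Ogn (-1.36) in KO lie farthest to the left.

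Among the fibrillar collagens, whose chains build the load-bearing fibres, 4 of 5 rose between 6 and 24 h in WT and 4 of 5 in KO. Over all tested genes 19.3% rose in WT and 19.7% in KO. The median change of the 5 collagens was 2.27 in WT and 1.90 in KO. Col1a1, the major chain of collagen I, read 13.14 and 11.06 on the WT 0 h arrays, 10.62, 9.88 and 9.70 at 3 h, 10.08 and 10.40 at 6 h, and 13.48 and 13.40 at 24 h. On the KO arrays it read 10.57 and 11.16 at 0 h, 10.80 and 11.09 at 3 h, 10.95 and 10.16 at 6 h, and 12.96 and 13.50 at 24 h. Every 24 h array lay above every 3 h and 6 h array, and WT 0 h replicate 1 lay among the 24 h arrays while its partner lay among the KO 0 h arrays. The rise from 6 to 24 h was 3.20 in WT (SE 0.50, limma adjusted p = 0.000162), a 9.18-fold change, and 2.68 in KO (SE 0.50, adjusted p = 0.000675), a 6.40-fold change. The fall at 3 h in WT was -2.03 with all arrays and -0.99 (adjusted p = 0.0376) without WT 0 h replicate 1, and at 6 h it was -1.86 and then -0.82, which was no longer called (adjusted p = 0.103). KO arrays gave 0.08 at 3 h and -0.31 at 6 h, neither of them called (adjusted p = 0.925 and 0.680).

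Col1a2, the partner chain of collagen I, followed the same course. It read 11.18 and 9.75 at 0 h in WT, 9.41, 9.08 and 8.97 at 3 h, 9.24 and 9.21 at 6 h, and 11.50 and 11.47 at 24 h. The KO arrays gave 9.73 and 9.77, then 9.63 and 9.76, then 9.33 and 9.12, and at 24 h 10.94 and 11.31. The 24 h arrays stood above the 3 h and 6 h arrays without overlap, by 2.27 over 6 h in WT (SE 0.30, limma adjusted p = 4.68e-05) and by 1.90 in KO (adjusted p = 0.000197). Against 0 h, the WT change at 24 h was 1.02 (adjusted p = 0.0160) with WT 0 h replicate 1 and 1.74 (adjusted p = 3.94e-06) without it, and it was lost without WT 0 h replicate 2 or either 24 h array (adjusted p up to 0.206).

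Col3a1, the chain of collagen III that is plentiful in distensible tissue, read 11.86 and 10.34 at 0 h in WT, 9.67, 9.33 and 9.06 at 3 h, 9.41 and 9.46 at 6 h, and 11.92 and 11.99 at 24 h. KO arrays gave 10.50 and 10.97, 10.13 and 10.09, 9.87 and 9.75, and 11.72 and 12.04 at the same times. It was low at 3 and 6 h in WT and lowest at 6 h in KO, and high on all 4 of the 24 h arrays. The rise over 6 h was 2.52 in WT (SE 0.34, adjusted p = 4.69e-05) and 2.07 in KO (adjusted p = 0.000234, both by limma). A second Col3a1 probe, which averaged 8.17, near the array median of 8.20, rose by 0.27 and 0.29 over the same step. From 0 h in WT it changed by 0.06 at 3 h and -0.03 at 6 h, where the probe used here changed by -1.75 and -1.67. Against 0 h, Col3a1 in WT was called at 3 h (-1.75, and -0.99 without WT 0 h replicate 1) but not at 24 h (0.85, adjusted p = 0.0636) unless that array was left out (1.62, adjusted p = 4.84e-05).

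The collagen V chains, which start and limit the fibres of collagen I, did not move as a pair. Col5a2 read 9.26 and 9.13 at 0 h in WT and 8.28 to 8.58 on the 5 arrays at 3 and 6 h, and then 9.08 and 9.02. It fell by 0.89 at 3 h in WT (limma adjusted p = 3.85e-07; a change of -0.83 without WT 0 h replicate 1) and by 0.66 in KO (adjusted p = 1.95e-05), and rose by 0.53 and 0.39 from 6 to 24 h. Col5a1 read 13.04 and 11.99 at 0 h in WT, 12.86, 12.84 and 13.00 at 3 h, 13.00 on both 6 h arrays, and 13.35 and 13.33 at 24 h. The KO arrays rose from 12.16 and 12.41 through 12.62 and 12.53, then 13.06 and 12.84, to 13.14 and 13.35. Apart from WT 0 h replicate 1 the 0 h arrays lay below all later arrays of Col5a1. Its change at 24 h was 0.83 in WT (adjusted p = 0.00890; 1.36 without WT 0 h replicate 1) and 0.96 in KO (adjusted p = 0.00247). The WT call was lost without WT 0 h replicate 2 (adjusted p = 0.0822).

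**Figure D3:**
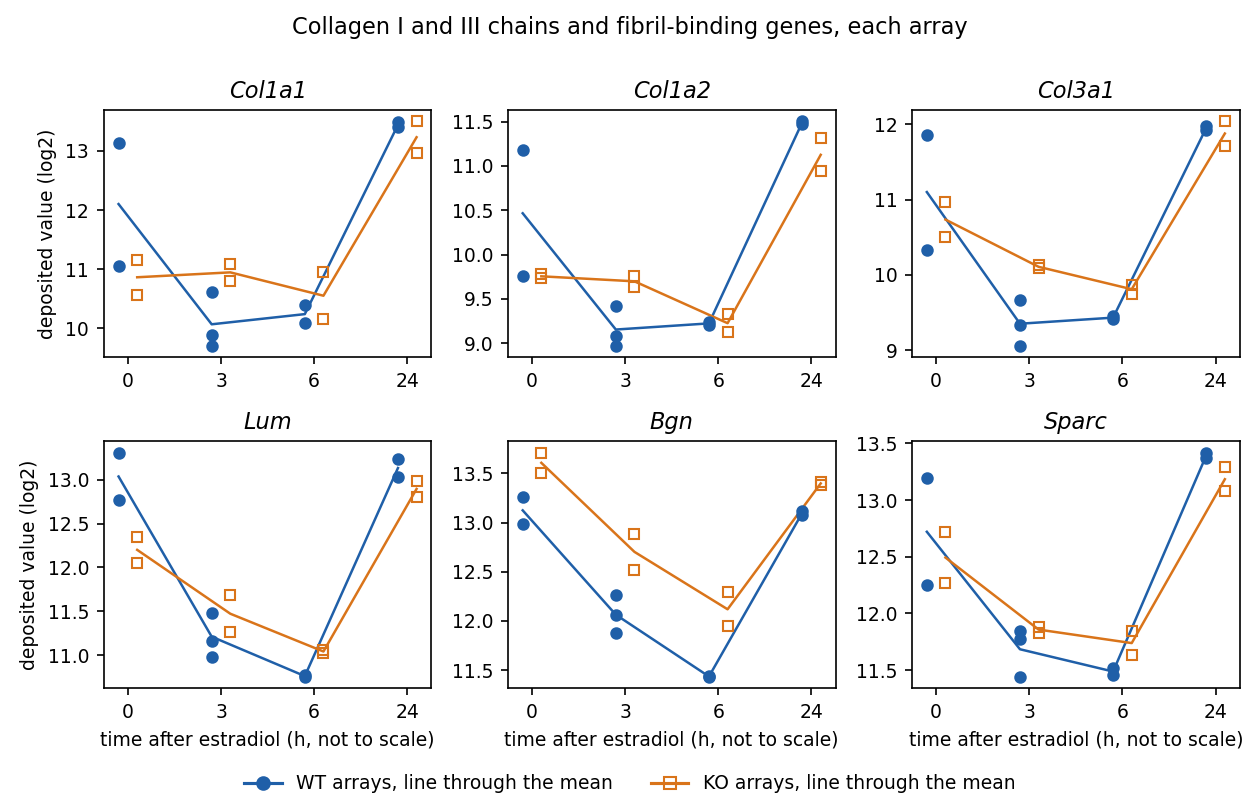
Log2 level of Col1a1, Col1a2, Col3a1, Lum, Bgn and Sparc on each of the 17 arrays by time after estradiol (evenly spaced, not to scale), with filled circles for WT, open squares for KO and lines through the group means. All 6 genes are lower at 6 h than at 24 h on every array, and 1 WT 0 h array lies near the 24 h level for the 3 collagens (Col1a1 at 13.14).

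Collagen VI, whose beaded filaments link cells to the fibres, was higher at 24 h than at 0 h for the 2 chains with a probe. Col6a2 read 12.15 and 10.67 at 0 h in WT, 11.78, 11.38 and 11.57 at 3 h, 12.00 and 12.15 at 6 h, and 13.16 and 13.24 at 24 h. In KO the values were 10.42 and 10.94, 11.37 and 11.47, 12.31 and 11.86, and 13.08 and 13.24. With WT 0 h replicate 1 set aside, each later time lay higher than the one before it. At 24 h the change from 0 h was 1.79 in WT (SE 0.33, limma adjusted p = 0.000742; 2.53 without WT 0 h replicate 1) and 2.48 in KO (adjusted p = 2.79e-05). Another Col6a2 probe ran differently, with a rise of 1.60 at 6 h in WT and a fall of 0.97 from 6 to 24 h in WT and 0.79 in KO, where the probe used here rose by 1.13 and 1.07. Col6a1, whose chain pairs with that of Col6a2, read 14.63 and 13.90 at 0 h in WT, 14.21, 13.93 and 14.12 at 3 h, 14.40 and 14.51 at 6 h, and 14.92 and 15.04 at 24 h. In KO it read 13.75 and 13.92, 14.00 and 14.06, 14.51 and 14.17, and 14.75 and 14.87. The 24 h arrays were the highest of each genotype. Col6a1 was higher at 24 h than at 0 h by 0.72 in WT (adjusted p = 0.00544; 0.0804 without WT 0 h replicate 2, and a change of 1.08 without WT 0 h replicate 1) and by 0.98 in KO (adjusted p = 0.000376).

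Col14a1, a collagen that decorates fibre surfaces, fell and stayed low. It read 9.65 and 9.66 at 0 h in WT, 9.28, 9.26 and 8.99 at 3 h, 8.68 and 8.65 at 6 h, and 8.78 and 8.82 at 24 h. KO arrays read 9.67 and 9.83, 9.39 and 9.48, 8.62 and 9.06, and 8.69 and 8.74. No 6 h or 24 h array reached the 0 h range in either genotype. The change at 6 h was -0.99 in WT (SE 0.12, limma adjusted p = 1.26e-05) and -0.91 in KO (adjusted p = 2.29e-05), and at 24 h it was -0.85 and -1.03. The WT changes were -0.997 and -0.863 without WT 0 h replicate 1.

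Of the 11 basement membrane genes, 7 were lower and 1 higher at 3 h in WT (24.5% and 22.2% of all genes), and 6 lower and 0 higher in KO (21.4% and 19.0%; 8 at an unadjusted p under 0.05). Other kept probes of the 7 genes lower in WT at 3 h did not all fall. Those of Lamc1 and Col18a1 changed by 0.03 and -0.04, where the probes used here changed by -0.42 and -0.39. For Lama4 they changed by -0.07 and 0.01 (-0.34 on the probe used), while that of Nid1 fell by 0.83. At 6 h 6 were lower and 0 higher in each genotype, where the shares of all genes lower were 22.1% in WT and 23.0% in KO. The WT counts were the same without WT 0 h replicate 1, 7 lower and 1 higher, then 6 and 0. The nidogens tie the laminin and collagen IV networks together. Nid2 read 10.24 and 10.30 at 0 h in WT, 9.30, 9.42 and 9.23 at 3 h, 8.84 and 8.72 at 6 h, and 9.88 and 9.83 at 24 h. In KO it read 10.66 and 10.65, 9.70 and 9.28, 8.71 and 8.85, and 10.27 and 10.44. The 6 h arrays were the lowest of both series, and none of the 4 time ranges overlapped within WT or within KO. The fall at 6 h was -1.49 in WT (SE 0.11, limma adjusted p = 2.33e-07; -1.52 without WT 0 h replicate 1) and -1.87 in KO (adjusted p = 4.61e-08), and the rise from 6 to 24 h was 1.07 and 1.57. Nid1 fell by 1.07 and 0.91 at 6 h (a WT change of -1.08 without WT 0 h replicate 1) and then rose by 0.56 and 0.65. A second Nid1 probe moved the other way from 6 to 24 h, with a fall of 0.57 in WT and 0.27 in KO.

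Collagen XV, a basement membrane collagen of muscle and vessels, shared the later rise of the fibrillar chains. Col15a1 read 10.09 and 10.16 at 6 h and 11.76 and 11.67 at 24 h in WT, and 10.50 and 10.61, then 11.55 and 11.78, in KO. Those ranges are far apart, and the change was 1.59 in WT (SE 0.19, limma adjusted p = 1.69e-05) and 1.11 in KO (adjusted p = 0.000329). Col18a1, whose C-terminal end is endostatin, read 13.50 and 13.60 at 0 h in WT, 13.17, 13.13 and 13.17 at 3 h, 12.97 and 12.99 at 6 h, and 13.02 and 13.15 at 24 h. In KO the values were lower at each time, 13.04 and 13.02, 12.96 and 12.65, 12.85 and 12.41, and 12.57 and 12.67. Every KO array lay below every WT array of its own time. The fall from 0 h at 6 h was -0.57 in WT (adjusted p = 0.00128; -0.62 without WT 0 h replicate 1) and -0.40 in KO (adjusted p = 0.0136), the latter lost without KO 0 h replicate 1 or KO 6 h replicate 2 (adjusted p up to 0.219). A second Col18a1 probe moved little from 0 to 6 h, by -0.036 in WT and -0.025 in KO. Col4a1, a chain of the collagen IV network itself, was called in 0 of the 8 comparisons between times, with values from 11.93 to 13.06. Its KO difference at 3 h, -0.47, had a limma adjusted p of 0.0555, which was 0.0472 without WT 0 h replicate 1.

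The laminin chains differed among themselves. Lamb2, the beta chain of vessel and muscle laminins, read 11.11 and 11.58 at 0 h in WT, 11.03, 11.07 and 10.98 at 3 h, 10.73 and 10.65 at 6 h, and 10.55 on both 24 h arrays. KO arrays read 11.73 and 11.71, 11.24 and 11.28, 10.70 and 10.95, and 10.77 and 10.78. The 24 h arrays lay below all 0 h and 3 h arrays, by -0.79 from 0 h in WT (SE 0.11, limma adjusted p = 0.000109; -1.03 without WT 0 h replicate 1) and by -0.94 in KO (adjusted p = 1.16e-05). Lama2, the alpha chain of muscle laminin, read 9.09 and 9.38 at 0 h and 8.79 and 8.91 at 24 h in WT, and 9.23 and 9.46, then 8.70 and 8.68, in KO. Its fall at 24 h was -0.38 in WT (adjusted p = 0.00766; -0.53 without WT 0 h replicate 1) and -0.65 in KO (adjusted p = 8.84e-05). The WT call was lost without WT 0 h replicate 2 or WT 24 h replicate 1 (adjusted p up to 0.119).

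Lamb1, the beta chain of early laminins, was the laminin chain of the list that rose in WT. It read 8.54 and 8.49 at 0 h in WT, 9.06, 9.01 and 9.17 at 3 h, 8.70 and 8.78 at 6 h, and 8.52 and 8.50 at 24 h. The KO arrays read 8.45 and 8.53, 8.78 and 8.42, 8.60 and 8.49, and 8.33 and 8.45. All 3 WT 3 h arrays lay above every other array of the gene, and 1 of the KO 3 h arrays lay at the 0 h level. The change at 3 h was 0.56 in WT (SE 0.09, limma adjusted p = 0.000100; 0.59 without WT 0 h replicate 1) and 0.12 in KO (adjusted p = 0.394).

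The elastic fibre genes moved in opposite directions. Fbln2, a fibulin that binds elastin, fibronectin and basement membranes, read 10.66 and 10.39 at 0 h in WT, 11.71, 11.79 and 12.14 at 3 h, 12.31 and 12.40 at 6 h, and 11.64 and 11.56 at 24 h. The values in KO were 10.21 and 10.44, 11.14 and 11.18, 12.03 on both 6 h arrays, and 11.15 and 11.17 at 24 h. It peaked at 6 h, and at 3, 6 and 24 h every KO array lay below every WT array. The rise at 6 h was 1.83 in WT (SE 0.12, limma adjusted p = 9.70e-08; 1.96 without WT 0 h replicate 1) and 1.70 in KO (adjusted p = 1.61e-07), and a second probe rose by 1.02 in WT. Fbln1, a fibulin of elastic fibres and vessel walls, read 13.61 and 13.85 at 0 h in WT, 13.03, 13.20 and 12.89 at 3 h, 12.41 and 12.32 at 6 h, and 12.71 and 12.70 at 24 h. The KO arrays read 13.70 and 13.66, 12.86 and 13.23, 12.53 and 12.89, and 12.96 and 12.81. The 0 h arrays were the highest of each series, and the fall at 6 h was -1.36 in WT (adjusted p = 2.27e-06; -1.48 without WT 0 h replicate 1) and -0.97 in KO (adjusted p = 3.84e-05).

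Eln, the gene of elastin itself, moved little. Its WT values were 9.63 and 9.45 at 0 h, 9.68, 9.98 and 9.91 at 3 h, 9.87 and 9.88 at 6 h, and 9.35 and 9.38 at 24 h. Its KO values were 9.54 and 9.87, 9.90 and 9.66, 9.83 and 9.78, and 9.53 and 9.95, so the KO times overlapped throughout. The fall from 6 to 24 h in WT was -0.51 (SE 0.14, limma adjusted p = 0.00923), and it was lost without WT 6 h replicate 2 or WT 24 h replicate 1 (adjusted p up to 0.0540).

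Among the proteoglycans, 3 of 6 rose from 6 to 24 h in both genotypes (Lum, Bgn and Vcan). In WT 0 fell, and in KO 2 fell (Dcn and Ogn). Over all tested genes 19.3% rose and 19.0% fell in WT, and 19.7% and 18.6% in KO. Lum, lumican, a keratan sulfate proteoglycan that regulates fibre assembly, read 13.31 and 12.77 at 0 h in WT, 11.48, 10.98 and 11.16 at 3 h, 10.75 and 10.77 at 6 h, and 13.23 and 13.04 at 24 h. Lumican in KO read 12.05 and 12.35, 11.26 and 11.68, 11.06 and 11.02, and 12.81 and 12.99. The 3 h and 6 h arrays lay below all 0 h and 24 h arrays, and the KO 0 h arrays lay below the WT 0 h arrays. Lumican fell by 2.28 at 6 h in WT (SE 0.19, limma adjusted p = 4.97e-07; a change of -2.01 without WT 0 h replicate 1) and by 1.16 in KO (adjusted p = 0.000135). From 6 to 24 h it rose by 2.38 in WT (adjusted p = 7.26e-07) and by 1.86 in KO (adjusted p = 4.35e-06), and its second probe rose by 2.34 and 1.79.

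Bgn, biglycan, a proteoglycan that binds collagen I and TGF-beta, read 13.26 and 12.99 at 0 h in WT, 12.26, 12.06 and 11.87 at 3 h, 11.43 and 11.44 at 6 h, and 13.12 and 13.07 at 24 h. Biglycan in KO read 13.50 and 13.71, 12.52 and 12.89, 11.95 and 12.29, and 13.38 and 13.41. It was lowest at 6 h and back at its 0 h range by 24 h in WT, and every KO array lay above every WT array of its own time. The fall at 6 h was -1.69 in WT (SE 0.15, limma adjusted p = 7.64e-07; -1.55 without WT 0 h replicate 1) and -1.49 in KO (adjusted p = 1.74e-06), and the rise to 24 h was 1.66 and 1.28. Vcan, versican, the large proteoglycan that binds hyaluronan, rose late, from 8.22 and 8.24 at 6 h to 8.61 and 8.51 at 24 h in WT and from 8.17 and 8.25 to 8.68 and 8.88 in KO. That change was 0.33 (adjusted p = 0.00226) and 0.58 (adjusted p = 2.91e-05), at levels near the array median of 8.20.

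Dcn, decorin, which binds collagen I and restrains fibre growth, declined in steps on the probe used here. It read 15.05 and 15.23 at 0 h in WT, 14.88, 14.82 and 14.93 at 3 h, 14.26 and 14.38 at 6 h, and 14.42 and 14.26 at 24 h. KO levels were 15.06 and 15.08, 14.77 and 14.85, 14.32 and 14.65, and 13.90 and 14.01. The KO 24 h arrays were the lowest of the gene. The fall at 24 h was -0.80 in WT (SE 0.10, limma adjusted p = 3.69e-05; -0.88 without WT 0 h replicate 1) and -1.11 in KO (adjusted p = 1.13e-06). The values are near the top of the scale, which ends at 15.94. At 6 h in WT the probe used here fell by 0.82, and the 3 other decorin probes by 0.83, 1.51 and 2.56. The last of these was lowest at 3 h (a change of -2.92 in WT) and rose by 0.97 in WT and 0.31 in KO from 6 to 24 h. In KO the probe used here fell by 0.53 over that step, and the others fell by 0.25 and 0.47. With the mean of all kept probes the KO fall over that step was not called (limma adjusted p = 0.140).

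Ogn, osteoglycin or mimecan, a small leucine-rich proteoglycan, took different courses in WT and KO. It read 12.31 and 12.42 at 0 h in WT, 12.89, 12.95 and 13.15 at 3 h, 12.84 and 12.75 at 6 h, and 12.54 and 12.34 at 24 h. Osteoglycin in KO read 13.12 and 12.96 at 0 h, 13.42 and 13.00 at 3 h, 12.97 and 13.52 at 6 h, and 11.83 and 11.94 at 24 h. The KO arrays lay above the WT arrays at 0 h and 6 h and below them at 24 h. At 24 h Ogn was within 0.07 of its 0 h level in WT (limma adjusted p = 0.790; 0.02 without WT 0 h replicate 1) and 1.15 below it in KO (SE 0.16, adjusted p = 4.39e-05). Fmod, fibromodulin, a collagen-binding relative of lumican, read at most 8.29, near the array median, and was called at 6 h in KO, by -0.18 (adjusted p = 0.0153; lost without 3 of the 4 arrays at up to 0.171), and in no other comparison between times.

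**Figure D4:**
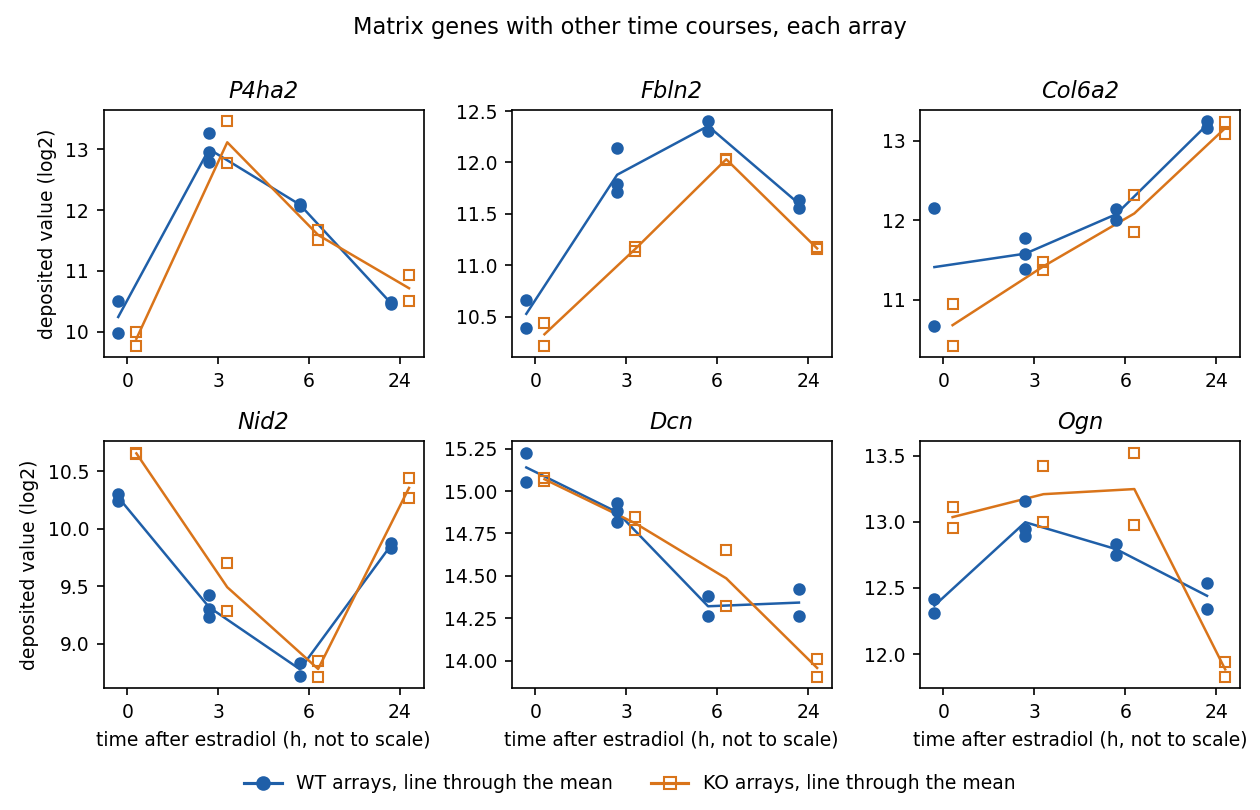
Log2 level of P4ha2, Fbln2, Col6a2, Nid2, Dcn and Ogn on each of the 17 arrays by time after estradiol (evenly spaced, not to scale), with filled circles for WT, open squares for KO and lines through the group means. P4ha2 peaks at 3 h at up to 13.46, Fbln2 peaks at 6 h, Nid2 is lowest at 6 h, and the 2 KO 24 h arrays of Ogn (11.83 and 11.94) lie below all WT arrays.

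Among the adhesive and matricellular glycoproteins, Sparc followed the fibrillar collagens. Its product, osteonectin, binds collagen as it is secreted. Sparc read 13.19 and 12.25 at 0 h in WT, 11.84, 11.77 and 11.44 at 3 h, 11.46 and 11.51 at 6 h, and 13.42 and 13.37 at 24 h. In KO it read 12.27 and 12.72, 11.88 and 11.83, 11.84 and 11.63, and 13.08 and 13.29. All 3 h and 6 h arrays lay below all 0 h arrays, and 24 h was the highest time, again with WT 0 h replicate 1 near it. The rise from 6 to 24 h was 1.91 in WT (SE 0.23, limma adjusted p = 1.94e-05) and 1.45 in KO (adjusted p = 0.000187), and the other 2 probes rose by 1.84 and 1.48 in WT. Fn1, fibronectin, on which collagen fibres are first assembled, rose by 0.62 (adjusted p = 0.00305) and 0.68 (adjusted p = 0.00169) over the same step, while its 3 other probes moved by -0.04 to 0.28. Postn, periostin, ranged from 8.03 to 8.34, near the array median, and was called at 6 h in KO only as a fall of -0.23 (adjusted p = 0.00503; 0.0737 without KO 0 h replicate 1).

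Of the enzymes that modify collagen, P4ha2 had the largest rise from 0 h of all 34 genes. It codes for the catalytic subunit of a prolyl 4-hydroxylase, which stabilises the triple helix. P4ha2 read 10.51 and 9.97 at 0 h in WT, 12.80, 13.27 and 12.95 at 3 h, 12.11 and 12.07 at 6 h, and 10.45 and 10.49 at 24 h. In KO it read 10.00 and 9.77, 13.46 and 12.77, 11.51 and 11.67, and 10.50 and 10.93. It was highest at 3 h on all 5 arrays, intermediate at 6 h, and by 24 h within its 0 h range in WT and above it in KO, by 0.83 (adjusted p = 0.00619; lost without KO 0 h replicate 2 or KO 24 h replicate 2, at up to 0.0827). The rise at 3 h was 2.76 in WT (SE 0.20, limma adjusted p = 1.00e-07; 3.03 without WT 0 h replicate 1), a 6.79-fold change, and 3.24 in KO (SE 0.22, adjusted p = 1.13e-07), a 9.42-fold change. A second probe rose by 2.50 and 2.94, and the third moved by 0.07 and 0.13.

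Lox, the lysyl oxidase that starts crosslinking, fell instead. It read 10.83 and 10.73 at 0 h in WT, 9.74, 9.66 and 9.64 at 3 h, 9.68 and 9.96 at 6 h, and 10.42 and 10.24 at 24 h. In KO it read 10.44 and 10.66, 9.93 and 9.52, 10.11 and 9.43, and 9.77 and 10.61. The 3 h and 6 h arrays lay below the 0 h arrays in both, and the KO 24 h arrays were far apart from each other. The fall at 3 h was -1.10 in WT (SE 0.22, limma adjusted p = 0.000783; -1.05 without WT 0 h replicate 1) and -0.83 in KO (adjusted p = 0.0129, lost without KO 0 h replicate 2 or KO 3 h replicate 2 at up to 0.107). Loxl1, the oxidase that acts on elastin, read 12.01 and 11.23 at 0 h in WT, 11.72, 11.72 and 11.79 at 3 h, 11.63 and 11.55 at 6 h, and 12.25 and 12.27 at 24 h. The KO arrays gave 11.25 and 11.71, 11.83 and 11.17, 11.70 and 11.42, and 12.16 and 12.27, so that 24 h was the highest time in both. It was higher at 24 h than at 6 h by 0.67 in WT and 0.66 in KO, with the loss on leaving out arrays given above.

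Differences between KO and WT at a matched time were few. At 0 h 1 gene was higher and 2 lower in KO (2.24% and 2.19% of all tested genes): Ogn by 0.67 (SE 0.16, limma adjusted p = 0.0342), Lum by -0.84 (SE 0.19, adjusted p = 0.0219) and Col18a1 by -0.52 (SE 0.12, adjusted p = 0.0258). Without WT 0 h replicate 1 limma called 0 of the 34 (0.587% and 1.15% of all genes), and without WT 0 h replicate 2 it called 11 (11.7% of all genes in either direction), so this comparison rests on which WT 0 h array is kept. At 3 h 1 was higher and 2 lower in KO (2.16% and 2.07% of all genes). Fbln2 was lower by 0.72 in KO at 3 h (SE 0.11, adjusted p = 0.00352), which was called without each of the 5 arrays in turn. Lamb1 was lower by 0.48 (SE 0.09, adjusted p = 0.00923; 0.0965 without KO 3 h replicate 2 and 0.0650 with only the groups compared). Bgn was higher by 0.64 (SE 0.13, adjusted p = 0.0164), and the call was lost without WT 3 h replicate 3 or KO 3 h replicate 2 (adjusted p up to 0.184), and with only the groups compared (0.0526).

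At 6 h limma called 0 of the 34 genes between KO and WT, with 7 at an unadjusted p under 0.05 and 0.631% of all genes called. The nearest was Bgn, higher in KO by 0.68 (SE 0.15, adjusted p = 0.0535), which was called without WT 0 h replicate 1 (adjusted p = 0.0406). At 24 h 1 gene was higher and 3 were lower in KO (4.08% and 4.27% of all genes). Nid2 was higher by 0.50 (SE 0.11, adjusted p = 0.0139), and Col18a1, Fbln2 and Dcn were lower by 0.47, 0.43 and 0.38 (adjusted p = 0.0272, 0.0433 and 0.0278). With the mean of all kept probes Dcn was not called (limma adjusted p = 0.0589). Leaving out single arrays ended the Nid2 call in 3 of 4 cases (adjusted p up to 0.141) and the other 3 calls in all 4 cases (up to 0.210, 0.231 and 0.235). The fibrillar collagens were not called between KO and WT at any time with all arrays. Their differences were between -1.24 (Col1a1, adjusted p = 0.195; -0.20 without WT 0 h replicate 1) and -0.14 at 0 h. At 3 h they were between -0.33 (Col5a1) and 0.88 (Col1a1, adjusted p = 0.322), with a median of 0.54. Without WT 0 h replicate 1, limma called Col1a2 (0.54, adjusted p = 0.0229) and Col3a1 (0.76, adjusted p = 0.0151) higher and Col5a1 (-0.33, adjusted p = 0.0476) lower in KO at 3 h. Of all 34 genes 3 were then higher and 3 lower at 3 h (3.05% and 3.16% of all genes), from the same 3 h arrays and so the same differences. At 24 h the differences were -0.21 for Col1a1 (SE 0.50), -0.36 for Col1a2 (SE 0.30) and -0.07 for Col3a1 (SE 0.34). Differences within these errors were not detectable with 2 arrays a group.

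Whether the change after E2 itself differed was tested by the interaction of label and time, the KO change from 0 h minus the WT change. How many genes it called rested on which WT 0 h array was kept. More of the 34 were called without replicate 2, at each time and in the joint test below, with the counts given at the end. The share of all genes called in that refit is not given, so this cannot be told apart from a change over all genes. Limma called 0 of 34 genes at 3 h (7 at an unadjusted p under 0.05, 1.09% of all genes called) and 0 at 6 h (6 and 0.400%), and also 0 at both times without WT 0 h replicate 1 (0.567% and 0.239% of all genes). At 24 h it called 0 higher and 1 lower (4.12% and 3.15% of all genes): Ogn, at -1.23 (SE 0.23, adjusted p = 0.00833). Without WT 0 h replicate 1 the Ogn interaction was -1.17 (adjusted p = 0.0292, with 3.65% of all genes called in either direction), and it was called in each of the 8 cases where 1 array was left out. The interaction includes the 0 h difference of Ogn. At 24 h itself the KO minus WT difference was -0.56, which was not called with all arrays, and it was -0.18 and -0.15 on the other 2 Ogn probes. From 0 to 24 h those 2 probes changed by -0.40 and -0.50 in KO and by 0.24 and 0.16 in WT. The probe used here changed by -1.15 and 0.07. From 6 to 24 h the other 2 probes fell by 0.61 and 0.71 in KO and by 0.16 and 0.25 in WT, where the probe used here fell by 1.36 and 0.35. A joint F-test over the 3 times called 2 of the 34 genes (6.83% of all genes), Ogn (adjusted p = 0.0226) and Lum (adjusted p = 0.0406; 0.0847 without WT 0 h replicate 1).

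Genes that work with these members were read from 8 further lists. Limma called interactions of label and time in these lists too, such as Col8a2 (-0.92, adjusted p = 0.0338) and Mfap2 (0.98, adjusted p = 0.0115) at 3 h. Another was Itgb5 at 24 h (-0.94, adjusted p = 0.00183). These are not followed here, and how far they depend on single 0 h arrays is not given. From 6 to 24 h, the share of all tested genes that rose and fell was 19.3% and 19.0% in WT and 19.7% and 18.6% in KO, against which the counts below stand. Of 20 tested genes for collagen processing, 8 rose and 3 fell from 6 to 24 h in WT, and 8 rose and 2 fell in KO. Pcolce, an enhancer of procollagen cleavage, rose by 1.46 and 1.29, Crtap, part of the prolyl 3-hydroxylase complex, by 0.80 and 0.93, and Ppib, the isomerase of that complex, by 0.71 and 0.86. Plod1, a lysyl hydroxylase, rose early instead, by 1.30 in WT (1.46 without WT 0 h replicate 1) and 0.95 in KO at 6 h. Of 24 other collagen chains, 3 rose and 3 fell in WT and 4 and 4 in KO over the same step, all below those shares. Col8a2, a short-chain collagen of vessel and corneal membranes, rose by 3.61 at 3 h in WT (3.54 without WT 0 h replicate 1) and 2.69 in KO, and from 6 to 24 h fell by 3.24 and 2.94. Col23a1, a transmembrane collagen, rose by 2.13 in WT (1.87 without WT 0 h replicate 1) and 1.13 in KO at 6 h and fell by 2.47 and 1.92 from 6 to 24 h.

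Of 12 microfibril and elastic fibre partners, 6 rose and 1 fell from 6 to 24 h in WT, and 5 and 1 in KO. Mfap2 rose by 2.25 and 2.05 and Mfap4, which binds elastic fibres, by 1.29 and 1.24, while Ltbp1, which holds latent TGF-beta in the matrix, fell by 0.89 and 0.95. Among 10 other basement membrane genes, 4 rose and 2 fell in WT, and 0 rose and 4 fell in KO. Agrn, agrin, was lower at 6 h than at 0 h (-1.23 in WT, -1.43 without WT 0 h replicate 1, and -1.11 in KO). Of 5 other small leucine-rich proteoglycans, limma called 0 from 6 to 24 h in either genotype. Prelp, which links collagen to heparan sulfate, changed from 0 h by -2.25 and -2.10 at 6 h and by -1.98 and -2.54 at 24 h, where the WT changes were -2.51 and -2.25 without WT 0 h replicate 1.

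Among the 18 other matricellular proteins more fell than rose late: 1 rose and 8 fell from 6 to 24 h in WT, and 1 and 10 in KO. Tgfbi, a collagen-binding protein induced by TGF-beta, changed from 0 h to 24 h by -3.17 in WT and -3.25 in KO. Tnxb, tenascin X, changed by -1.53 and -2.14, and Ccn2, connective tissue growth factor, by -1.25 and -2.80. Without WT 0 h replicate 1 the WT changes of these 3 were -3.46, -1.78 and -1.61. Ccn1 was higher at 3 h, by 1.84 and 1.16 (1.87 in WT without WT 0 h replicate 1). Among 18 matrix receptors 3 rose and 3 fell in WT from 6 to 24 h, below the shares of all genes, and 3 rose and 9 fell in KO. Itga11, a collagen-binding integrin subunit, was lower at 24 h than at 0 h (-1.56 and -2.03, with -1.81 in WT without WT 0 h replicate 1). Of 10 genes of TGF-beta signalling 1 rose and 3 fell in WT, and 0 and 6 in KO. Skil, which represses Smad signalling, was higher at 3 h by 1.15 and 1.44, and Smad3 was lower at 24 h (-0.68 and -0.81). The WT changes of these genes were 1.24 and -0.81 without WT 0 h replicate 1.

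Marker lists of the cell types that whole uterus can hold moved with time as well. The mean of 10 stromal fibroblast markers, none of them a matrix gene of the list, stayed between -0.23 and 0.20 of its own mean over the 17 arrays, and that of 10 smooth muscle markers between -0.15 and 0.33. Of the 10 stromal markers 2 rose and 2 fell from 6 to 24 h in WT, about the shares of all genes, and 4 and 2 in KO. Epithelial markers were at 0.43 to 0.79 on the 24 h arrays and at -0.44 to 0.16 on all others, and 8 of 9 rose and 0 fell from 6 to 24 h in WT, 5 and 1 in KO. The 10 endothelial markers were at 0.18 to 0.32 at 0 h and -0.29 to -0.19 at 24 h. Adipocyte markers were at 0.72 to 1.80 on the 0 h arrays and at -0.89 to 0.54 later, and 6 of 6 were lower at 3 h in both genotypes, in WT also without WT 0 h replicate 1. Of all tested genes 24.5% were lower at 3 h in WT and 21.4% in KO. From 6 to 24 h 19.3% rose and 19.0% fell in WT, and 19.7% and 18.6% in KO. The part of the marker shifts in the changes of the matrix genes was not tested.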

How the data were processed

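Uterine RNA from 17 arrays was analysed from the authors' deposited table of log2 values. BeadStudio (version not stated) read the arrays, per the submitters' processing notes. How background was corrected and which offset or software was used is not stated there. All 17 columns share 1 set of quantiles, so they had been quantile normalized (median 8.20, range 7.39 to 15.94). Of 45281 probes, 34885 carry 1 gene symbol in the platform annotation. Probes above the array median on at least 2 arrays were kept, and the brightest stood for its gene. No depth applies to arrays, and their number limits the precision.

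A linear model with 1 mean per group was fitted with limma 3.58.1 in R 4.3.3 (residual degrees of freedom 9, prior 4.56), with two-sided tests and Benjamini-Hochberg adjustment over 14737 genes. The script was tested on simulated data. The matrix genes and the other lists were chosen with earlier results of these data known. Values on every array were given for matrix genes among the 4 largest rises or falls called in a comparison and for the brightest of each role group, and up to 4 called genes of a related list were eligible for naming. Other genes of the 39 were named for their role. Promoter windows came from RefSeq on GRCm38.p6. Alternatives covered filters, probe choice, offset, normalization, weights, the replicate block and leaving out each array.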

Additional observations from a re-analysis of the deposited data

Results flagged for a closer look

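Osteoglycin (Ogn) was singled out because its change after estradiol differed between the arrays labelled KO and WT. The interaction at 24 h was -1.23 on the log2 scale, and the joint test over 3, 6 and 24 h gave a limma adjusted p of 0.0226. Lumican (Lum) was singled out by the same joint test, with a limma adjusted p of 0.0406, which was 0.0847 without WT 0 h replicate 1. No group had 4 or more arrays, so single arrays were not tested as outliers.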

How the results depend on the processing

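Counts of called matrix genes kept within 1.5 times under most settings. Apart from the shares given in the results above, the counts in this section stand without the share of all genes called in the same fit. A change in a count can therefore not be told apart from a change over all genes. KO minus WT at 0 h fell from 3 to 0 with only the groups compared. At 6 h it went from 0 to 1 with an offset of 50, with an intensity trend and robust prior, and with array quality weights. At 24 h it went from 4 to 10 with array quality weights and to 9 with only the groups compared. The joint interaction went from 2 to 1 with the mean of all kept probes, with the trend and robust prior, and with the replicate block; with only the groups compared it was not run. The cause was not tested.

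Leaving out 1 array at a time gave these lowest and highest counts. WT against 0 h gave 21 and 24 at 3 h, 16 and 21 at 6 h, and 7 and 20 at 24 h. KO against 0 h gave 8 and 20, 16 and 24, and 16 and 25. The step from 6 to 24 h gave 14 and 21 in WT, and 16 and 24 in KO. KO minus WT gave 0 and 11 at 0 h, 1 and 6 at 3 h, 0 and 5 at 6 h, and 0 and 5 at 24 h. The interactions gave 0 and 8 at 3 h, 0 and 9 at 6 h, 1 and 10 at 24 h, and 0 and 11 jointly, with the highest of these 4 all without WT 0 h replicate 2. An arm left with 1 array is assumed to vary like the other groups.

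Replicate numbers did not pair the samples: same-numbered arrays deviated with correlations of -0.19 to 0.31, over 0.1 in 11 of 56 pairs. With the replicate block WT gave 22, 19 and 17 calls against 0 h, KO 16, 22 and 23, the 6 to 24 h step 20 and 19, and KO minus WT 3, 2, 0 and 4. Under this block Bgn at 3 h was 0.54 higher in KO (limma adjusted p = 0.0779) and was not called. The numbers follow the order of the arrays within a group, and in KO at 3 h they differ from the letters in the sample names. A block by letter left the Bgn call in place. Of 72 named gene results, 51 kept their call under all 27 settings, and 0 of the others reversed. With 2 arrays a group, differences of dim probes near the array median are the least certain.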
